A study of Mus musculus with 12 samples.

Results

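The genes described here encode the nuclear-encoded subunits of oxidative phosphorylation. They were taken by name as protein-coding genes whose symbols start with Ndufa, Ndufb, Ndufc, Ndufs, Ndufv, Sdha, Sdhb, Sdhc, Sdhd, Uqcr, Cox4 to Cox8 or Atp5, without Ndufaf genes and pseudogene names, and with at least 10 counts in total over 11 mice. The names gave 90 candidates. Of these 88 were kept out of 47729 deposited genes, of which 26963 had enough counts to be tested. Cox8c, a further complex IV isoform, had 2 counts and was left out, whereas Cox8b was kept with 28, and a second identifier named Atp5o was not analysed here. By complex the 88 genes divide into 36 of complex I, 4 of complex II, 8 of complex III, 19 of complex IV and 17 of complex V. The prefix Sdha also takes in Sdhaf1, Sdhaf2, Sdhaf3 and Sdhaf4, which help to assemble complex II and are no subunits of it, so that 84 members remain without these 4.

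Oxidative phosphorylation takes place in the inner mitochondrial membrane. Complex I (NADH dehydrogenase) and complex II (succinate dehydrogenase) pass electrons to ubiquinone, complex III (the cytochrome bc1 complex) passes them to cytochrome c, complex IV (cytochrome c oxidase) passes them to oxygen, and complex V (ATP synthase) uses the proton gradient made on the way. Most subunits are encoded in the nucleus, a small core is encoded in mitochondrial DNA, and neurons depend heavily on the ATP that the pathway makes.

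The series holds mRNA from the amygdala of 12 female C57/BL6 mice, with both amygdalae of a mouse forming 1 library. The mice were bought at 7 weeks of age and went through the elevated plus maze at 9 weeks, the light/dark box at 10 weeks and at 11 weeks a test of social interaction in 3 chambers (SIT). All come from 1 inbred strain, and the labels name no drug or difference in genotype. The labels class mice 3, 7 and 12 as less anxious (n = 3), mice 1, 4, 8 and 11 as anxious (n = 4) and mice 2, 6, 9 and 10 as more anxious (n = 4), while mouse 5 has no class and enters no comparison. These classes are tertiles of the second principal component of the same expression data, so a difference in expression between them is not independent of how they were made. The behavior measures, in contrast, were recorded without reference to expression, but they are not independent of the classes. The paper chose the second component because it correlated highly with plus maze and light/dark measures of the same mice. Libraries held between 31745630 and 45142355 estimated counts, and markers of neurons and of the basolateral and central amygdala were detected in the tissue.

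Values below are CPM, each gene's counts over the library's total after scaling for library composition, unless a level per transcript length (TPM) is named. A gene was called when its p-value from edgeR's quasi-likelihood test, adjusted over all genes tested, was under 0.05. Counts of genes at an unadjusted p under 0.05 are given only as descriptions, in each comparison beside the share of all genes tested that met the same criterion.

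The members made up between 0.813% and 1.03% of all counts. Their summed level was 8731 ± 935 CPM in less anxious mice (SD, n = 3), 9019 ± 691 in anxious mice (n = 4) and 9596 ± 610 in more anxious mice (n = 4). The highest sum was in mouse 9 (more anxious) with 10468 CPM and the lowest in mouse 12 (less anxious) with 7847 CPM, while the less anxious mouse 3 reached 9710 CPM, so the groups overlapped. Mouse 9 held the highest value for 26 of the 88 members (29.5%, against 12.8% of all genes with a mean of at least 10 CPM), mouse 3 for 22 (25%, against 19.1%) and mouse 8 for 20 (22.7%, against 10.6%). Mouse 12 held the lowest value for 40 members (45.5%), against 15.7% of the same genes. Summed over complex IV alone, the 3 less anxious mice lay between 1561 and 1962 CPM and the 4 more anxious mice between 2067 and 2434 CPM without overlap, and the 4 anxious mice lay between 1627 and 2099 CPM. The sums of complexes I, II, III and V overlapped between less and more anxious mice.

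Divided by transcript length (median length of the coding transcripts) and rescaled to TPM, the members differed widely in level. Cox4i1, an early-assembling nuclear subunit of complex IV, was the highest with 784 ± 115 TPM (SD, n = 11), followed by Cox8a, a small membrane subunit of the same complex, with 695 ± 177, and Atp5b, the catalytic beta subunit of ATP synthase, with 623 ± 58.9. These neighbours differ by less than their spread between mice. The 3 kept the first 3 ranks when the longest coding transcript was used instead. Within complex I the highest level belonged to Ndufs1, the largest iron-sulfur subunit, with 300 ± 22.0, but it fell from rank 18 to rank 65 with the longest transcript. Ndufb4, an accessory subunit, was the lowest there with 21.8, but near-identical copies held 82.2% of the counts on gene and copies together. Sdha, the flavoprotein that oxidizes succinate, led complex II with 285 ± 34.1, and Sdhd, a membrane anchor, was its lowest member with 69.2. In complex III the level ran from 93.3 for Uqcrfs1, the Rieske iron-sulfur protein, to 556 for Uqcrc1, a core protein whose rank fell from 6 to 30 with the longest transcript. Complex V ran from 33.9 for Atp5g2, a gene for the membrane ring, to 623 for Atp5b. For Atp5g2 as well, near-identical copies held 82.2% of the counts on gene and copies together. The assembly factors of complex II were low, from 4.10 for Sdhaf3 to 28.4 for Sdhaf2. Together the members accounted for 1.88% ± 0.156 of the summed per-length level (SD, n = 11).

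**Figure D1:**
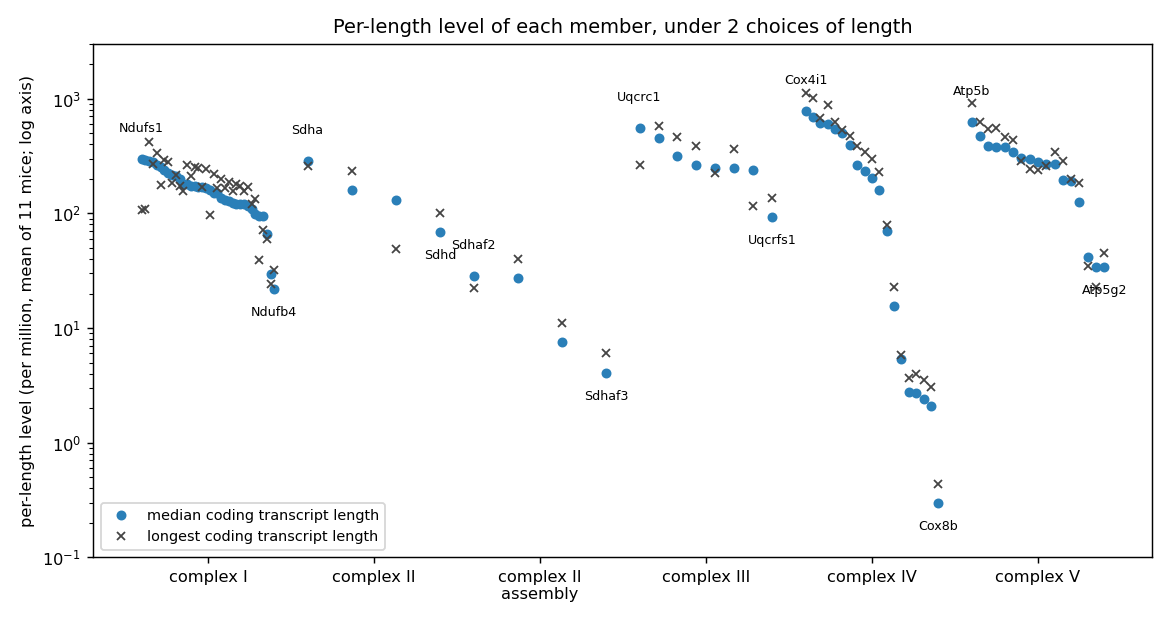
Level per transcript length of each of the 88 members, as the mean of 11 mice on a log axis, by complex; circles use the median and crosses the longest coding transcript. Cox4i1 stands highest with 784 TPM, Cox8b lowest with 0.298, and single genes such as Uqcrc1 shift with the choice of length.

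Where a subunit has tissue-specific isoforms, the ubiquitous isoform dominated in every pair. Cox4i1 exceeded Cox4i2, its oxygen-responsive isoform, 330 ± 56.3 times per length (SD, n = 11). Cox6b1 exceeded Cox6b2, known from testis, 107 ± 30.9 times, and Cox6a1 exceeded Cox6a2, known from heart and muscle, 39.5 ± 6.53 times. Cox7a2 exceeded the heart and muscle isoform Cox7a1 100.1 ± 27.4 times, and its relative Cox7a2l, which takes part in supercomplexes, 1.65 ± 0.256 times. Ndufa4, now counted with complex IV, exceeded Ndufa4l2 232 ± 40.5 times. The ratio of Cox7b to Cox7b2 was uneven, 190.1 ± 204, and ran from 52.5 to 585 between mice. For Cox8b, the muscle isoform of Cox8a, 3 mice had no read. Among the 3 genes for the ring of ATP synthase, Atp5g3 was 9.19 times the level of Atp5g1 and 11.6 times that of Atp5g2. Some ratios depended on the length used: Atp5g3 to Atp5g1 was 5.56 with the exon union and 16.1 with the longest coding transcript, and with the exon union Ndufa4 to Ndufa4l2 was 90.5, Cox4i1 to Cox4i2 171 and Cox6b1 to Cox6b2 188. Atp5g1 and Atp5g2 also share counts with near-identical copies.

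For 10 members, the gene has processed pseudogenes of at least 95% identity, on which the authors' quantification placed an appreciable share of counts. Of the counts on a gene and its copies together, the gene itself received 17.8% for Ndufb4 and for Atp5g2, 20.6% for Cox7c, 37.7% for Atp5l, 64.0% for Atp5g1, 72.2% for Ndufs5, 85.3% for Ndufa12, 85.4% for Cox6c, 86.0% for Ndufab1 and 94.5% for Cox7a2l. Values of these genes are therefore uncertain. The share was the highest in mouse 3 for 8 of the 10, with Atp5g2 and Cox6c as the exceptions. Cox7c shows this most: 34.2% of its counts were on the gene in mouse 3, against at most 24.9% in the other mice.

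**Figure D2:**
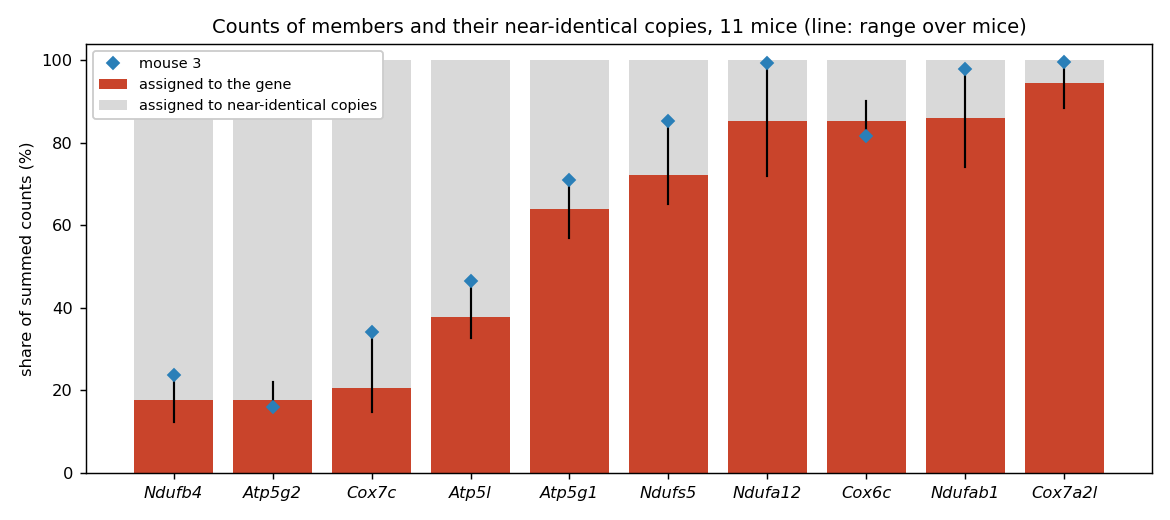
Share of summed counts assigned to each of 10 members (red) and to their near-identical processed pseudogenes (grey) over 11 mice, with the range over mice as a line and mouse 3 as a diamond. Mouse 3 lies at the top of the range for 8 of the 10 genes.

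Nuclear respiratory factor 1 (NRF-1) and the ETS-family factor GABP are long known as activators of respiratory chain genes, so their motifs were searched on both strands of RefSeq promoters (GRCm38.p6, 250 bases before to 50 bases after the start). A window was matched for 73 of the 88 members, 71 by symbol and 2 by synonym. Members without an entry included Ndufa2, Ndufb9, Ndufs1, Sdhc, Uqcrb, Uqcrc2, Uqcrq, Cox4i1, Cox4i2, Cox6a2, Cox6c, Ndufa4l2, Atp5a1 and Atp5mpl. The NRF-1 motif (GCGCA, any base, then GCGC) was in the window of 19 of 73 members (26%) and of 5.19% of all 27025 genes with a window. The ETS motif CCGGAAG was in 19 of 73 (26%), against 9.93% of all genes, and either of them was in 33 members (45.2%), against 14%. The GC box GGGCGG was in 33 members (45.2%), against 38.2%. NRF-1 matches overlapped no other match, and an ETS and a GC box match overlapped in 1 member. The 200 bases before the RefSeq start are printed for 7 members on which the comparisons below turn. They run 5′ to 3′ on the gene's strand, with NRF-1 and ETS matches in capitals. Cox6a1 holds 2 NRF-1 matches and 1 ETS match, Cox6b1 and Ndufs3 hold 1 ETS match each, and Cox5a, Cox5b and Uqcrfs1 hold none in these bases. In Cox8a the ETS matches lie across or after the start, outside the printed bases. The RefSeq start can differ from the gene coordinates given below, which come from GENCODE. By those coordinates the printed bases of Cox6a1, Cox6b1, Cox5b, Ndufs3 and Uqcrfs1 run into the gene. The printed ETS matches of Cox6a1, Cox6b1 and Ndufs3 lie inside it.
Cox6a1 (chr5:115348959-115349158, minus strand): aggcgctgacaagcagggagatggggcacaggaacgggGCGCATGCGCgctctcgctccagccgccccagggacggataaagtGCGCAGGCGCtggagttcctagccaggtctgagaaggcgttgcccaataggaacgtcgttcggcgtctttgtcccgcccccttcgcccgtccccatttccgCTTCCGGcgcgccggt
Cox6b1 (chr7:30626115-30626314, minus strand): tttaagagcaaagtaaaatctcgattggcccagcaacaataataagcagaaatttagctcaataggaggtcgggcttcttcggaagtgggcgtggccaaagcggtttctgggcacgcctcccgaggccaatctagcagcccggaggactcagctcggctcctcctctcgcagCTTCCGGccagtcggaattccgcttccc
Cox5b (chr1:36691287-36691486, plus strand): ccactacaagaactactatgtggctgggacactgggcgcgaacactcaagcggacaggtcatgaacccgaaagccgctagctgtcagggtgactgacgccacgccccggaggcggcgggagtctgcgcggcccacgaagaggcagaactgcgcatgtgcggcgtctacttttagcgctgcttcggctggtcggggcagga
Cox8a (chr19:7217617-7217816, minus strand): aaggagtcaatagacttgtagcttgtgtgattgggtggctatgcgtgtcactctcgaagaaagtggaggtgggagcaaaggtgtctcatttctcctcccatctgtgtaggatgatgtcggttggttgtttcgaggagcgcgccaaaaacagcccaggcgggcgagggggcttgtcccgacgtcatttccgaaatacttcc
Cox5a (chr9:57521032-57521231, plus strand): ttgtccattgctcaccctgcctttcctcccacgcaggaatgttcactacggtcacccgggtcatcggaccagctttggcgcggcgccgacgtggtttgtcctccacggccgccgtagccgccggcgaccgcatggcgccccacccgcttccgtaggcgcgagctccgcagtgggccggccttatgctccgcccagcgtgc
Ndufs3 (chr2:90904722-90904921, minus strand): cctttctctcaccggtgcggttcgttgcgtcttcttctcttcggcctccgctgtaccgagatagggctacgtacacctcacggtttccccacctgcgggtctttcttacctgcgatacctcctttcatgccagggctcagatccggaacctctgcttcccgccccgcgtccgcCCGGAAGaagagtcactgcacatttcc
Uqcrfs1 (chr13:30545317-30545516, minus strand): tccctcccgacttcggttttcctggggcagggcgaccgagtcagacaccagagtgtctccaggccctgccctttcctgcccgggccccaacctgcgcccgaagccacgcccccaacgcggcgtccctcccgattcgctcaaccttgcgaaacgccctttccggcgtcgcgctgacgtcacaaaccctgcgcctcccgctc

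Between more and less anxious mice, the question was whether transcription of the respiratory chain differs along the study's axis of anxiety. No member was called, and the smallest adjusted p was 0.120 (edgeR), where 0.0445% of all genes tested were called. At an unadjusted p under 0.05, 15 of the 88 members (17.0%) were higher in more anxious mice and none was lower, against 5.21% of all genes tested that were higher and 3.62% that were lower. Among genes with a mean of at least 10 CPM, which most members reach, 8.05% were higher. Complex IV contributed 7 of the 15, complex I 4, complex V 2, and complex III and complex II assembly 1 each. The fitted change was above 0 for 70 of the 88 members, against 50.5% of all genes, and its median over the members was 0.12 on the log2 scale, against 0.0036 over all genes. In 12 members the 4 more anxious mice all lay above the 3 less anxious mice (13.6%, against 4.49% of all genes), and in none did they all lie below (against 3.91%).

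Cox8a (chr19:7215153-7217616, minus strand, GRCm38) had the smallest p-value. Its levels were 136, 221 and 174 CPM in less anxious mice 3, 7 and 12, then 211, 238, 261 and 186 CPM in anxious mice 1, 4, 8 and 11, and 271, 282, 362 and 267 CPM in more anxious mice 2, 6, 9 and 10. Every more anxious mouse lay above every other mouse, whereas the less anxious and anxious mice overlapped. The fitted change was 0.72 ± 0.15 (log2, SE; adjusted p = 0.120 by edgeR), and the ratio of the group means was 1.67. Without mouse 9 the change was 0.47.

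Uqcrq, a small subunit of complex III next to cytochrome b (chr11:53427922-53430831, minus strand), was next. It stood at 54.0, 62.5 and 53.9 CPM in the less anxious mice, at 63.2, 82.2, 88.4 and 61.6 CPM in the anxious mice and at 87.3, 85.0, 104.1 and 78.7 CPM in the more anxious mice, in the same order of mice. The less and more anxious mice did not overlap, and the anxious mice spanned the levels of both. The fitted change was 0.61 ± 0.13 (adjusted p = 0.128, edgeR).

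Cox5b, a peripheral zinc-binding subunit of complex IV (chr1:36691449-36693681, plus strand), had 142, 185 and 145 CPM in less anxious mice, 189.7, 221, 239.6 and 145 CPM in anxious mice and 233, 238, 220.4 and 202 CPM in more anxious mice. Only the anxious mouse 11 fell to the level of the less anxious mice. The fitted change between more and less anxious mice was 0.44 ± 0.11 (adjusted p = 0.207, edgeR).

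Cox6b1, which faces the intermembrane space (chr7:30616861-30626151, minus strand), had a fitted change of 0.45 ± 0.13 (adjusted p = 0.289), with 138 ± 11.5 CPM in less anxious mice (SD, n = 3) and 186 ± 26.9 CPM in more anxious mice (n = 4). Cox6a1 (chr5:115345642-115348981, minus strand) had a fitted change of 0.41 ± 0.13 (adjusted p = 0.344). Its more anxious mice were close together, between 239.2 and 254 CPM, above the 159.4 to 219 CPM of the less anxious mice and the 149 to 229 CPM of the anxious mice. Atp5d, the delta subunit in the rotor of ATP synthase, had a fitted change of 0.36 ± 0.12 (adjusted p = 0.376). Its 4 more anxious mice, at 153 to 199 CPM, lay just above the highest less anxious mouse at 149.9 CPM. Without mouse 9 its change was 0.19. Atp5d overlaps Cbarp, as Cox5a does Gm26631 and Cox4i1 does Emc8, on the other strand. Whether the counting used the strand is not given in the sources used here. Some members overlap a gene on the same strand, which no strand setting separates, such as Cox4i1 with Gm20388, Ndufb8 with Gm20538 and Ndufb2 with Gm42420.

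**Figure D3:**
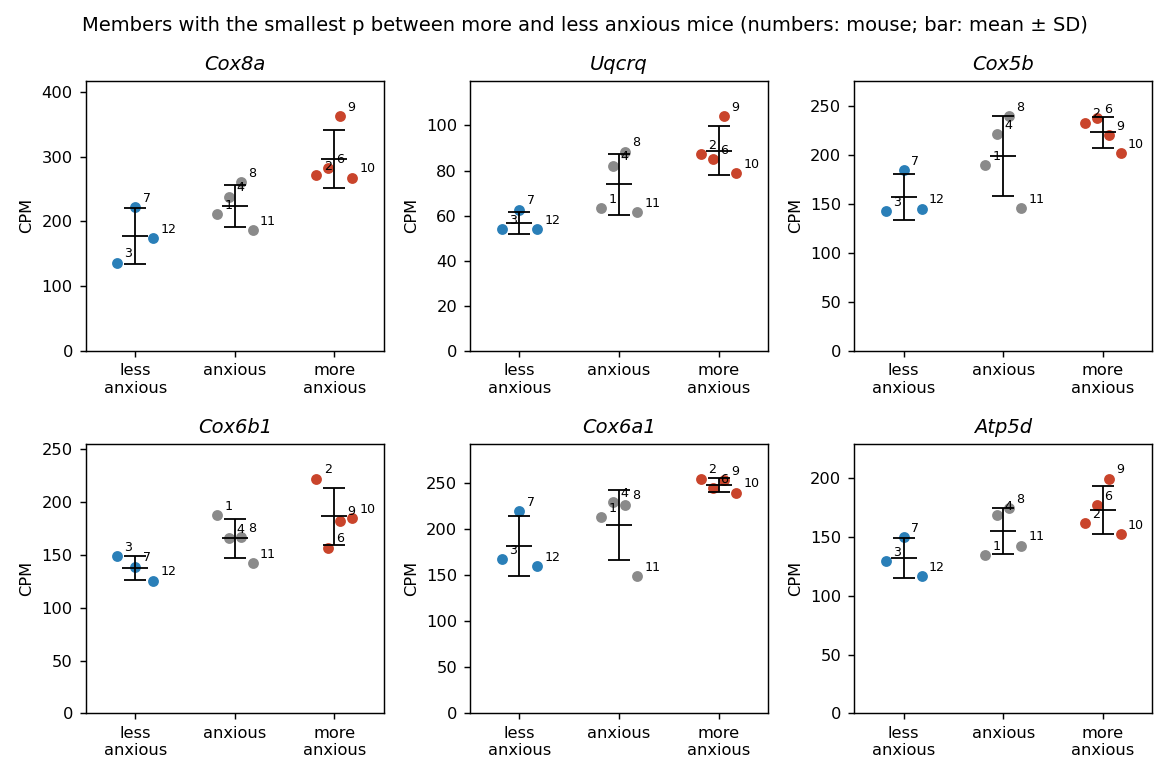
CPM of 6 members in 3 less anxious, 4 anxious and 4 more anxious mice, with the mouse number beside each point and the mean ± SD as bars. More anxious mice lie above less anxious mice in each panel, and anxious mice overlap with the less anxious mice in each panel.

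The other 9 of the 15 had weaker support. Cox5a, a matrix-side subunit of complex IV, had a fitted change of 0.36 ± 0.14, but mouse 3 with 96.8 CPM lay above 3 of the 4 more anxious mice. In Sdhaf1, an assembly factor for the iron-sulfur subunit of complex II, the change was 0.39 ± 0.15 and the levels were 8.94 to 10.5 CPM against 12.0 to 14.5 CPM. Cox7a1 had a fitted change of 0.71 ± 0.29 at a level under 1.1 CPM in every mouse, with 317 reads in all. Cox8b rested on 28 reads in all, 2 of them in less anxious mice and 19 in more anxious mice, so that its fitted change of 2.58 ± 1.05 carries little weight. In complex I the members were Ndufs7, a core iron-sulfur subunit, with 0.31 ± 0.13, and the accessory subunits Ndufa6 with 0.26 ± 0.11, Ndufb7 with 0.25 ± 0.11 and Ndufv3 with 0.24 ± 0.11. Atp5k, subunit e of the membrane part of ATP synthase, had 0.41 ± 0.17. The groups overlapped for Cox5a, Atp5k and Ndufb7. Single mice carried much of several of these values: without mouse 9 the change was 0.13 for Ndufs7, 0.091 for Ndufb7, 0.16 for Ndufv3 and 0.24 for Cox5a, without mouse 7 it was 0.13 for Ndufv3 and 0.17 for Ndufa6, and without mouse 12 it was 0.22 for Atp5k.

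Subunits that are often used as references for their complex showed small differences, apart from Cox5a, described above. Ndufs1 had a fitted change of −0.10 ± 0.10, Ndufv1 of 0.043 ± 0.12 and Ndufb8 of 0.13 ± 0.12. In complex II, Sdha had −0.035 ± 0.12 and Sdhb 0.14 ± 0.10. In complex III, Uqcrc1 had 0.088 ± 0.12, Uqcrfs1 0.22 ± 0.15 and Uqcrc2 −0.17 ± 0.091, the most negative change of any member above 1 CPM (−0.077 without mouse 3 and −0.37 without mouse 7). Cox4i1 had 0.098 ± 0.12, Cox6c 0.034 ± 0.12, Atp5a1 −0.0050 ± 0.10, Atp5b 0.13 ± 0.11 and Atp5o 0.067 ± 0.10. None of these 13 had an unadjusted p under 0.05, whereas Cox5a, a further reference subunit, did (0.36 ± 0.14, unadjusted p = 0.0209, edgeR). The next most negative changes were those of Ndufa4l2 (−0.17 ± 0.23), Ndufs4 (−0.15 ± 0.14), Sdhd (−0.13 ± 0.12) and Atp5mpl (−0.11 ± 0.17). Cox7b was among the 5 largest positive changes above 1 CPM, 0.47 ± 0.33, with levels from 77.3 to 230 CPM across mice and an unadjusted p of 0.189 (edgeR).

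**Figure D4:**
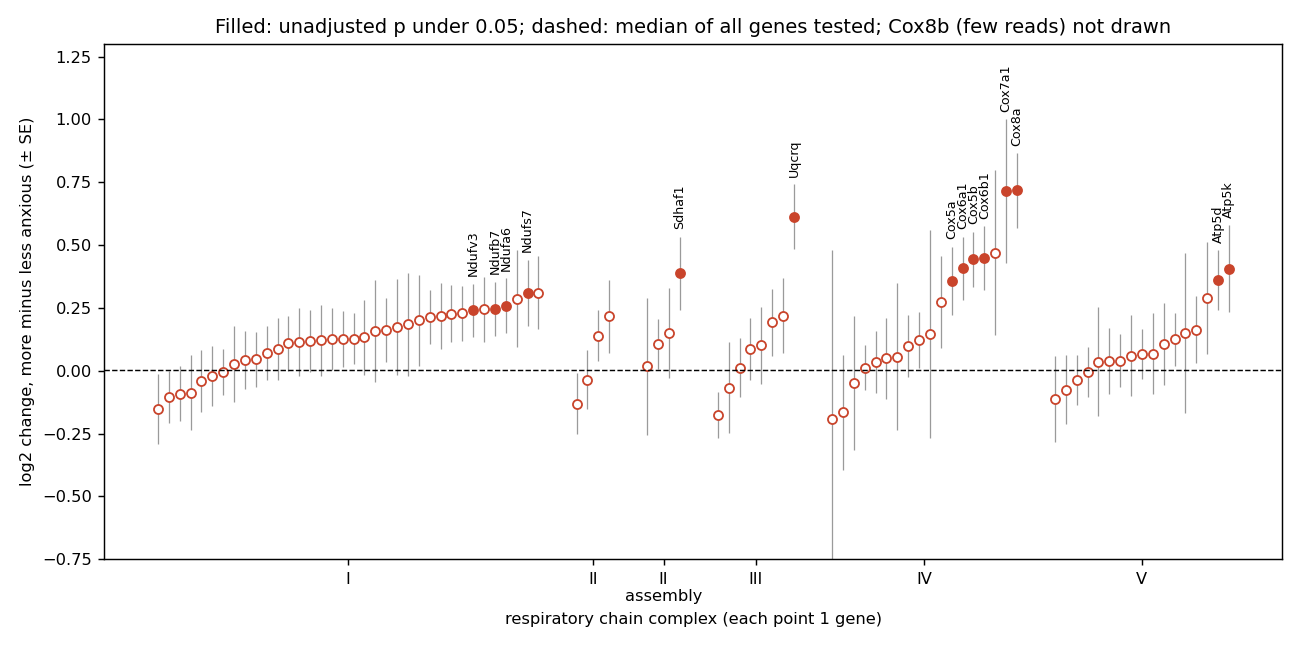
Fitted log2 change between more and less anxious mice with its SE for 87 members by complex, where filled points have an unadjusted p under 0.05 and the dashed line is the median of all genes tested. Filled points are all above 0, and 6 of the 14 drawn belong to complex IV.

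The difference depended on single mice. Without mouse 3 (less anxious) 38 members had an unadjusted p under 0.05, against 9.34% of all genes, and the median change was 0.29. Without mouse 12 (less anxious) 6 did (6.82%, against 8.02% of all genes), and the median was 0.03. Without mouse 7 (less anxious) there were 8 (9.09%, against 5.88%), and without mouse 9 (more anxious) 9 (10.2%, against 6.02%). With transcript length as an offset the median was 0.054 and 13 members had an unadjusted p under 0.05 (14.8%, against 8.69%). With GC content as an offset the median was 0.10 and 14 did (15.9%, against 7.70%), but the change of Atp5d fell to 0.17, of Ndufs7 to 0.15 and of Ndufb7 to 0.10. The 15 members had shorter transcripts (median 571 bases, against 718.5 in the other members) and a higher GC content (55.8% against 51.6%).

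Summed markers of some cell types differed between less and more anxious mice, and those of others overlapped. The summed level of 5 astrocyte markers was 1063 to 1298 CPM in less anxious mice and 795 to 1011 CPM in more anxious mice, without overlap, and that of 4 endothelial markers was 102 to 148 against 76.0 to 95.9 CPM, again without overlap. The 9 neuron markers summed to 4860 to 5169 CPM and 4997 to 6106 CPM, 6 oligodendrocyte markers to 2651 to 3402 and 2116 to 2892 CPM, 5 microglia markers to 164 to 198 and 136 to 171 CPM, and 5 striatal markers to 123 to 418 and 84.8 to 233 CPM. The groups overlapped in each of these. They also overlapped for basolateral (63.8 to 116 and 41.6 to 116 CPM) and central amygdala markers (239 to 295 and 200 to 479 CPM). The same held for oligodendrocyte precursor (82.9 to 109 and 71.9 to 88.9 CPM) and red blood cell markers (68.8 to 96.8 and 54.0 to 106 CPM). Choroid plexus markers were low and overlapped (16.0 to 24.6 and 9.86 to 17.4 CPM). Pituitary markers were lower still, at 2.14 to 3.67 CPM in less anxious and 1.11 to 1.63 CPM in more anxious mice, without overlap. However, 1 anxious mouse had 56.7 CPM of them. The part of these markers in the result was not tested. In bulk tissue, fewer cells of a type and less RNA per cell cannot be told apart.

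The anxious group lay between the others for the leading members. Against less anxious mice, 3 members were higher at an unadjusted p under 0.05 (3.41%, against 2.49% of all genes): Uqcrq with 0.32 ± 0.13, Cox6b1 with 0.28 ± 0.13 and Cox5b with 0.25 ± 0.11. No member was called by edgeR (0.00371% of all genes were), and in no member did the groups lie apart (3.02% of all genes lay wholly higher and 2.48% wholly lower). Between more anxious and anxious mice, 4 members were higher (4.55%, against 2.79% of all genes): Cox8a with 0.43 ± 0.14, Cox6a1 with 0.30 ± 0.12, Uqcrq with 0.29 ± 0.12 and Ndufa1, an accessory subunit of complex I, with 0.25 ± 0.10. Without mouse 9 these were 0.24 for Cox8a and 0.15 for Uqcrq, and without mouse 11 Cox6a1 had 0.19. None was called, as was no gene in the whole table (0%). Cox8a and Cox6a1 were higher and Ndufa12 lower in all more anxious mice than in all anxious mice (2.27% and 1.14% of members, against 1.41% and 1.09% of all genes). These shares are close to the background. A test of any difference among the 3 groups called no member (0.00742% of all genes were called) and gave 7 members an unadjusted p under 0.05 (7.95%, against 6.35% of all genes): Cox8a, Uqcrq, Cox5b, Cox6a1, Cox6b1, Atp5d and Cox5a. These 3 pairwise comparisons share mice, and DESeq2 called more genes in all: Cox8a (adjusted p = 0.0058) and Uqcrq (0.0168) among the 3 groups, where it called 187 genes or 1.05% of those with an adjusted p, and Cox8a (0.0020), Uqcrq (0.0035) and Cox5b (0.0143) between more and less anxious mice, where it called 304 or 1.85%.

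The behavior measures were then fitted without the classes. The classes still share mice with them, and come from a component chosen for its correlation with maze and light/dark measures. In the SIT, time in direct contact with a stranger mouse (box) was set against time near it (zone), and each slope below is the fitted log2 change per SD of the measure. For the box:zone ratio of the first 3 min, over 10 mice with a mean ratio of 1.06 and an SD of 0.490, no member was called (0.015% of 26651 genes were). At an unadjusted p under 0.05, 28 members (31.8%) were higher with a higher ratio and none lower, against 4.54% of all genes that were higher, or 6.88% of genes above 10 CPM. The slope was above 0 for 76 of the 88 members, against 51.3% of all genes, with a median of 0.089 against 0.0037. By complex, 12 of 36 members of complex I, 1 of 4 of complex II, 3 of 8 of complex III, 3 of 19 of complex IV, 8 of 17 of complex V and 1 of 4 assembly factors were among them.

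Cox5a (chr9:57521274-57532426, plus strand) had the smallest p-value. In order of rising ratio it had 61.5 CPM in mouse 7 (ratio 0.236), 70.5 in mouse 12 (0.691), 76.1 in mouse 6 (0.797), 78.9 in mouse 2 (0.801), 76.1 in mouse 1 (0.943), 76.2 in mouse 11 (0.989), 76.2 in mouse 8 (1.15), 89.3 in mouse 10 (1.45), 96.8 in mouse 3 (1.70) and 126 CPM in mouse 9 (1.84). The level was nearly flat over the 5 mice in the middle and higher in the 3 mice with the highest ratios. The slope was 0.27 ± 0.04 (adjusted p = 0.0731, edgeR). Mouse 4, which lacks this ratio, had 74.0 CPM.

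Uqcrfs1, the Rieske protein of complex III (chr13:30540308-30545362, minus strand), followed with a slope of 0.23 ± 0.04 (adjusted p = 0.123, edgeR). It lay between 61.1 and 62.1 CPM in the 2 mice with the lowest ratios (7 and 12), between 71.2 and 80.5 CPM in the next 6, and at 101 and 99.5 CPM in mice 3 and 9. Ndufs3, a core subunit of complex I (chr2:90894634-90904827, minus strand), went from 64.4 CPM in mouse 7 to 91.8 and 99.5 CPM in mice 3 and 9, with a slope of 0.19 ± 0.04 (adjusted p = 0.168, edgeR). Atp5e, the epsilon subunit of the ATP synthase rotor, was at 34.4 to 51.0 CPM in 8 mice and at 69.3 and 73.0 CPM in mice 3 and 9. Ndufb8, an accessory subunit of the proton-pumping arm of complex I, was at 77.5 to 111 CPM in 8 mice and at 135 and 133 CPM in mice 3 and 9. In each of these genes, mice 3 and 9, a less and a more anxious mouse, stood above all the others.

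**Figure D5:**
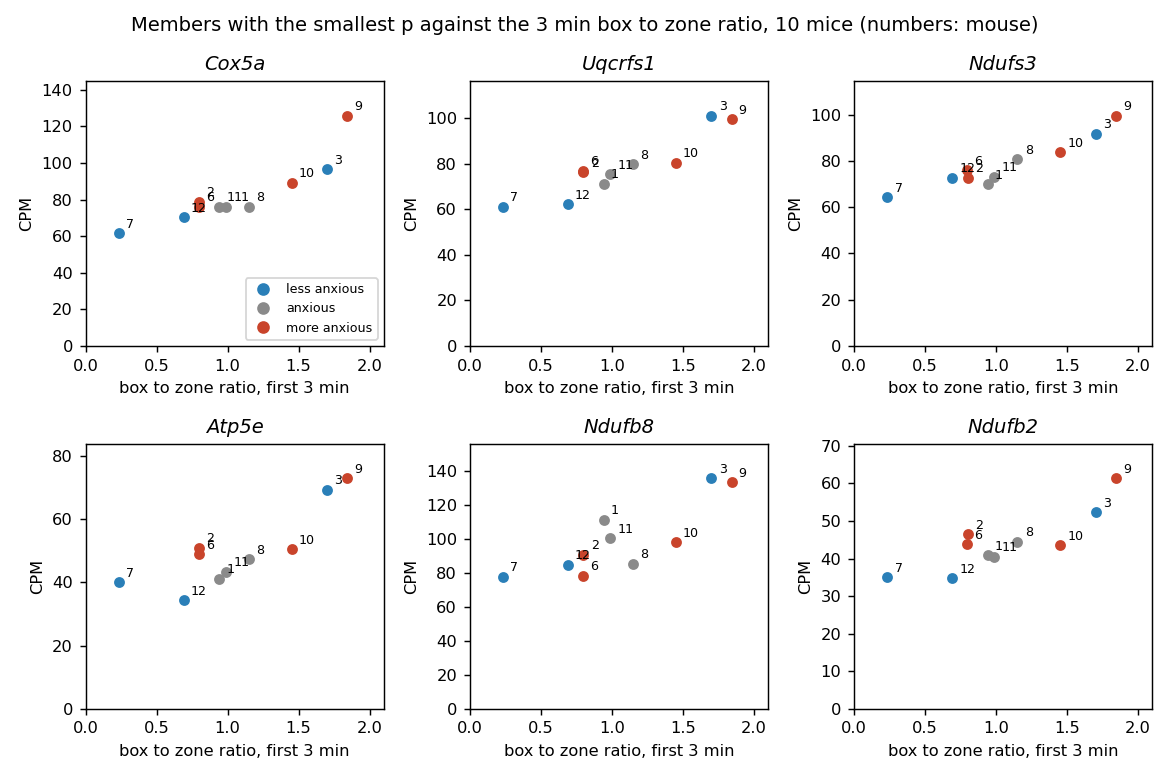
CPM of 6 members against the box:zone ratio of the first 3 min in 10 mice, colored by group, with mouse numbers. Mice 3 and 9, with ratios of 1.70 and 1.84, hold the highest values in all 6 panels.

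Further members with an unadjusted p under 0.05 were, in complex I, Ndufb2 (0.22 ± 0.05), Ndufab1 (0.22 ± 0.06), the mitochondrial acyl carrier protein, and Ndufv1 (0.14 ± 0.04), which binds NADH. In complex II it was Sdhc (0.16 ± 0.05), a membrane anchor, and in complex III Uqcrh (0.16 ± 0.04), the hinge protein. Complex IV had Cox4i1 (0.18 ± 0.05) beside Cox5a. Complex V had Atp5l (0.27 ± 0.06), subunit g, and Atp5b (0.12 ± 0.04). Atp5l and Ndufab1 share counts with near-identical copies. Their share on the gene was highest in mouse 3, at 46.6% and 97.9%, against at most 39.3% and 92.8% in the other mice. DESeq2, which called 146 genes in all (0.859% of those with an adjusted p), called 7 members: Cox5a (adjusted p = 9.6e-06), Ndufs3 (6.8e-05), Uqcrfs1 (0.00017), Atp5e (0.0096), Ndufb8 (0.0109), Ndufb2 (0.0114) and Atp5l (0.0440).

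Of the 15 members at an unadjusted p under 0.05 between more and less anxious mice, only Cox5a was among the 28 for this ratio. The group change was fitted over 11 mice with principal component 1 as a covariate. The slope is per SD over 10 mice without that covariate, so the sizes below are not directly comparable. The paper found its first component to correlate negatively with the SIT measures. Cox8a had 0.72 ± 0.15 between more and less anxious mice and a slope of 0.10 ± 0.12, Uqcrq 0.61 ± 0.13 and 0.12 ± 0.10, Cox5b 0.44 ± 0.11 and 0.01 ± 0.09, and Cox6a1 0.41 ± 0.13 and 0.03 ± 0.08. Conversely Ndufb8 had a slope of 0.25 ± 0.05 and a group difference of 0.13 ± 0.12, and Atp5l 0.27 ± 0.06 and 0.04 ± 0.22. Cox5a had a slope of 0.27 ± 0.04 and a group difference of 0.36 ± 0.14. The 2 comparisons rest on the same mice, and the difference between them was not tested.

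Without mice 3 and 9, a choice made after seeing the data, 4 members had an unadjusted p under 0.05 for the 3 min ratio (4.55%, against 4.33% of all genes), and the median slope was 0.043. The slope of Cox5a was then 0.14 and that of Uqcrfs1 0.13. Leaving out any 1 mouse gave between 22 and 32 members, where over all alternatives the share of all genes was 4.33% to 9.82%. Without mouse 3 the slope was 0.16 for Atp5l and 0.093 for Uqcrh, and without mouse 9 it was 0.089 for Sdhc and 0.077 for Atp5b.

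At 5 min 22 members were higher with the ratio at an unadjusted p under 0.05 (25%, against 3.54% of all genes that were higher) and at 10 min 14 were (15.9%, against 4.29%), and none was lower. No member was called at either time (0.0111% and 0.0223% of all genes were). Atp5mpl, a small membrane proteolipid of ATP synthase, had the smallest p-value at both, with slopes of 0.20 ± 0.05 (adjusted p = 0.491, edgeR) and 0.19 ± 0.05 (adjusted p = 0.350). Its level was 78.3 CPM in mouse 3, which had the highest ratio at both times, 60.5 CPM in mouse 9 and 43.1 to 52.1 CPM in the other 9 mice. Without mouse 3 the slopes of Atp5mpl were 0.079 and 0.044, and 3 members had an unadjusted p under 0.05 at 5 min (3.41%, against 3.49% of all genes) and 0 at 10 min (against 2.84%).

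On the elevated plus maze, more time on open arms is read as less anxiety. The slope on percent open time was below 0 for 66 of the 88 members, where 49.5% of all genes had one above 0. Its median over the members was −0.054. Genes of both ribosomes leaned the same way. The slope was above 0 for 22 of 85 genes of the cytosolic ribosome (25.9%, median −0.054) and 18 of 78 of the mitochondrial ribosome (23.1%, median −0.042). Whether the members differ from them was not tested. No member or gene was called (0%). At an unadjusted p under 0.05, 8 members were lower with more open time (9.09%, against 3.12% of all genes that were lower) and 1, Uqcrc2, was higher (0.12 ± 0.05; 2.73% of all genes were). Cox6b1 led with −0.20 ± 0.04 (adjusted p = 0.314, edgeR). Its levels were 222, 185 and 182 CPM in mice 2, 10 and 9, which spent 2.33%, 3.25% and 4.30% of the time on open arms, and 139, 126 and 157 CPM in mice 7, 12 and 6, which spent 24.5%, 24.6% and 29.2% there. The 5 mice in between, at 6.73% to 20.1%, had 142 to 188 CPM, so the levels of mice with low and high open time were separate and those between overlapped with both. The other 7 were Cox7a1 (−0.27 ± 0.11), Ndufb4 (−0.22 ± 0.07), Atp5k (−0.21 ± 0.06), Cox5a (−0.16 ± 0.07), Ndufv2 (−0.14 ± 0.04), an iron-sulfur subunit of complex I, Ndufa10 (−0.13 ± 0.04), an accessory subunit, and Cox4i1 (−0.13 ± 0.05). Without mouse 9 the slope of Cox5a was −0.077, and with the reads of near-identical copies added, a choice made after seeing the data, that of Ndufb4 was −0.082. DESeq2 called Cox6b1 alone of the members (adjusted p = 0.0184; 49 genes in all, 0.232%).

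For total entries on the maze 3 members were lower with more entries (3.41%, against 3.43% of all genes that were lower): Atp5k (−0.21 ± 0.06, and −0.13 without mouse 12), Cox6b1 (−0.19 ± 0.05) and Ndufv2 (−0.14 ± 0.04). In the light/dark box, 2 members were lower with more distance in the light (2.27%, against 3.14%), Cox6a2 (−0.18 ± 0.07) and Uqcrq (−0.17 ± 0.07, and −0.28 without mouse 6). For time in the light no member had an unadjusted p under 0.05 (0%, against 3.55% of all genes in either direction), with Cox6a2 nearest at −0.13 ± 0.07. No member was called by edgeR for these 3 measures (0%, 0% and 0.00742% of all genes were). These shares are at or below the background, but those of the light/dark box depended on mouse 6. This more anxious mouse had the highest open time (29.2%), time in light (46.6%) and distance in light (41.9%) of all mice. Without it 19 members had an unadjusted p under 0.05 for distance in light and 13 for time in light. Over all alternatives the share of all genes was at most 10.8% and 10.1% for these measures.

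Related genes were compared in the same fits. Between more and less anxious mice, 14 of 78 genes of the mitochondrial ribosome were higher at an unadjusted p under 0.05 and none lower (17.9%, close to the members' 17.0%), with a median change of 0.10. For the 43 assembly factors, which include the 4 Sdhaf genes, 8 were higher and 1 lower (median 0.091). The 13 subunits encoded in mitochondrial DNA gave 0 in either direction with a median of 0.18, 18 genes of the tricarboxylic acid cycle and pyruvate dehydrogenase gave 1 higher (0.024), 16 genes of glycolysis 1 higher (0.088), 13 genes of mitochondrial membrane transport and import 2 higher (0.045), 13 regulators of mitochondrial genes 1 higher (0.032), and 85 genes of the cytosolic ribosome 9 higher and 2 lower (0.040). Cyc1 and Cycs, the cytochromes c1 and c, gave 0 (0.081). None of these genes was called by edgeR. For the 3 min ratio, 21 of 85 genes of the cytosolic ribosome were higher and 1 lower (24.7% higher), 15 of 78 of the mitochondrial ribosome higher and 1 lower (19.2%), 11 of 43 assembly factors higher and 1 lower (25.6%), 3 of 13 of transport and import (23.1%), 3 of 18 of the tricarboxylic acid cycle (16.7%), 2 of 16 of glycolysis, 1 of Cyc1 and Cycs, 0 of the 13 mitochondrially encoded subunits and 0 higher and 2 lower of 13 regulators. Genes of both ribosomes thus also had a share above the 4.54% of all genes, and whether the members differ from them was not tested.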

How the data were processed

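mRNA was sequenced as single-end 75 bp reads on a single NextSeq500 run, with 1 library per mouse from a stranded kit. The authors trimmed the reads with cutadapt where needed, checked alignments to mm10 with STAR and quantified transcripts with Salmon, and tximport collapsed these to genes. The authors deposited the estimated counts per gene without normalization and as whole numbers (0 of the values were not whole). The annotation release, the versions and the strand setting are not given in the sources used here, and the submitters' processing notes also name CASAVA and DESeq2. Names, coordinates and lengths came from GENCODE M21 (GRCm38). Totals ran from 31745630 to 45142355 over the 12 mice, and no 2 libraries agreed within sampling noise (smallest mean chi-square per gene 17.5 over 66 pairs). A total of 0 reads allows up to 3, which covers counting error only.

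The groups and behavior measures came from the labels. Genes with at least 10 counts over the 11 mice with a group were tested with edgeR 4.0.16 (R 4.3.3; TMM, robust quasi-likelihood F-test), with the score on principal component 1 as a covariate between groups, as in the study's model, and without it for the slopes on standardized behavior measures, where mouse 4 lacks the 3 min ratio. P-values were adjusted by Benjamini-Hochberg over all genes tested. The slope model and the group model without principal component 1 were run on simulated counts, with genes independent and equally dispersed. The group model with that covariate was not run this way. Per-length levels divide CPM by the median coding transcript length and are rescaled to TPM. Near-identical copies were found with blastn 2.17.0 (at least 95% identity over at least 150 bases). Figures used Python 3.11.15 and matplotlib 3.10.9.

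Members, gene lists and tests were chosen with earlier results of these data known. Genes were named as reference subunits (1 of them is not reported here), isoform pairs, extremes of level, the smallest p-value for each behavior measure, members with an unadjusted p under 0.05 among the groups (up to 15), and the 5 largest changes in each direction between more and less anxious mice above 1 CPM. Members named beyond this (Ndufa12, Ndufa1 and those further down the lists for the pairwise and behavior comparisons) were chosen after their values were seen. Alternatives were DESeq2 1.42.0, other size factors and filters, length and GC offsets, the covariate, ranks of the measures, mouse 5 included, and each mouse left out.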

Additional observations from a re-analysis of the deposited data

Results flagged for a closer look

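Among 84 sets of 4 values tested (41 members and summed levels, in the anxious and the more anxious group), 6 had 1 mouse far from the other 3 by Dixon's criterion, which chance meets in about 1 in 20 sets. In the more anxious group the mouse apart was mouse 9 each time: Atp5b stood at 899.8 CPM there, against 721 to 738 CPM in the other 3 mice, Cox8a at 362 CPM, against 267 to 282 CPM, Atp5e at 73.0 CPM, against 49.0 to 51.0 CPM, and Ndufb2 at 61.4 CPM, against 43.6 to 46.5 CPM. In the anxious group Sdhaf1 stood at 14.3 CPM in mouse 8, against 10.3 to 10.8 CPM, and Cox5a at 74.0 CPM in mouse 4, against 76.1 to 76.2 CPM, where the whole range is small. Groups of 3 were not tested, so the less anxious mouse 3 could not be singled out this way.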

How the results depend on the processing

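No paired analysis was possible because the replicate numbers within the groups follow the order of the samples and pair no mice. Under edgeR no member was called in any comparison when any 1 mouse was left out (0 to 0 throughout). With DESeq2, 2 members were called among the 3 groups, 3 between more and less anxious mice, 1 for open time, 1 for total entries (Cox6b1, adjusted p = 0.0383; 0.239% of all genes) and 7 for the 3 min ratio, and with no count filter edgeR called 1 for that ratio (Cox5a, adjusted p = 0.0476; 0.0321% of all genes). The cause was not tested. The remaining values are numbers of members at an unadjusted p under 0.05. Single settings are followed by the share of all genes at that p, and ranges by the range of that share over all alternatives. Without mice 3 and 9 there were 21 among the 3 groups (6.21%), 29 between more and less anxious (7.71%), 18 between anxious and less anxious (6.88%), 7 for total entries (8.40%), 1 for distance in light (5.30%), 4 for the 3 min ratio (4.33%), 1 at 5 min (2.52%) and 1 at 10 min (2.64%). With principal component 1 as a covariate there were 14 for open time (8.26%), 9 for total entries (8.53%), 1 for time in light (4.60%) and 52 for the 3 min ratio (8.80%), and without it 1 between more anxious and anxious (4.08%). Ranks of the measure gave 7 for distance in light (6.59%), 5 for time in light (6.07%), 14 at 5 min (4.84%) and 5 at 10 min (4.37%). The group order as a number gave 17 (9.17%), a length offset 1 between anxious and less anxious (4.78%), and for distance in light no count filter gave 4 (7.31%) and mouse 5 included gave 1 (4.53%). Leaving out 1 mouse at a time gave 3 to 27 among the 3 groups, 6 to 38 between more and less anxious, 0 to 14 between anxious and less anxious, 1 to 11 between more anxious and anxious, 6 to 15 for open time, 3 to 7 for total entries, 1 to 19 for distance in light, 0 to 13 for time in light, 22 to 32 at 3 min, 3 to 30 at 5 min and 0 to 21 at 10 min. The share of all genes was 4.36% to 9.17% among the 3 groups and 5.88% to 11.6% between more and less anxious. It was 3.46% to 6.88% between anxious and less anxious and 3.26% to 7.04% between more anxious and anxious. For open time it was 4.34% to 8.26% and for total entries 3.74% to 8.53%. For distance in light it was 4.38% to 10.8% and for time in light 2.72% to 10.1%. At 3, 5 and 10 min it was 4.33% to 9.82%, 2.52% to 9.45% and 2.64% to 10.2%. The high counts for distance and time in light came without mouse 6. The members' share of the per-length level was 1.72% with exon union and 2.22% with the longest coding transcript. Of 1079 values of the leading single members of each comparison, none turned direction, 1066 kept their side of the threshold and 13 passed it. Medians over all members did turn in 3 comparisons: between anxious and less anxious mice from 0.040 to −0.0088 without mouse 7 and −0.036 without mouse 12, for total entries from −0.047 to 0.0043 without mouse 12, and for time in light from −0.020 to 0.015 without mouse 9, 0.0031 without mice 3 and 9 and 0.0030 with mouse 5. The members' median SE between more and less anxious mice was 0.13 on the log2 scale, about the size of their median change.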

Other observations

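Mouse 5, which the labels put in no group, had 23768 genes with a count, against 26378 to 28196 in the other 11 mice. The members made up 0.807% of its counts, and their summed level, scaled over all 12 mice, was 8024 CPM, against 7851 to 10473 CPM in the others.

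The 13 subunits encoded in mitochondrial DNA, which sit in the same complexes as the members, had slopes below 0 on percent open time in 13 of 13 cases, with a median of −0.17. Of these 8 had an unadjusted p under 0.05, where 3.12% of all genes were lower at that p, and none was called by edgeR. Most of the 13 genes are transcribed together and all were measured in the same mice, so they are not independent of each other.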
